A study of Mus musculus with 14 samples.

Results

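Interferon response genes are the genes that a cell switches on when interferon, the secreted alarm signal of virus infection, reaches it, or when its own sensors find foreign RNA. The 33 genes described here were chosen by symbol for their known roles, with no threshold on a measured value. They are 3 RNA sensors, 6 transcription factors, 14 antiviral effectors, 6 genes of the ISG15 modifier system and related modifiers, and 4 genes of antigen processing. All 33 were listed in both sets of libraries, out of 23597 usable symbols in the files of compound OB and 54540 in those of compound PD. The cells were BFU-E, the burst-forming progenitors at the start of the red cell lineage, taken from fetal liver of C57BL/6 mice, cultured in a serum-free medium. RNA was sequenced in 12 libraries in 4 groups of 3, which were compound OB at 100 µM with its own DMSO solvent controls, and compound PD at 3 nM with its own DMSO solvent controls. The age of the embryos, the time of culture and whether a library came from 1 animal or from pooled animals are not given in the labels. The labels also do not say that replicates were separate cultures, so the p-values speak only of the spread among these libraries, which may be technical. Another 2 samples of chromatin, a CREB immunoprecipitation and its input, were not analysed here.

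Type I interferons bind a receptor made of Ifnar1 and Ifnar2, whose kinases Jak1 and Tyk2 activate a factor that includes Stat2 and Irf9 and binds the interferon-stimulated response element (ISRE) of its target genes. Interferon gamma acts through a receptor made of Ifngr1 and Ifngr2, and some of its target genes, such as Irf1, carry a gamma-activated site (GAS). Blood progenitors express many of these genes at a basal level without infection, and interferon gamma is known to hold back the growth of erythroid colonies.

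Values are FPKM, that is sequenced fragments corrected for the length of the gene and the size of the library, and differences are compound minus DMSO in log2(FPKM + 1), a scale that understates the change of low genes. The depth of the libraries is unknown, since FPKM gives no read numbers. The erythroid markers fixed for the check (10 genes, Gata1, Klf1 and Kit among them) all averaged at least 1 FPKM in both sets. Markers of neutrophils and granulocyte precursors summed to between 11700 and 37658 FPKM in the PD libraries and between 145.5 and 582.7 FPKM in the OB libraries. In each set the libraries with replicate number 1 stood apart. PD DMSO replicate 1 had the lowest value of its group in 61.2% of the 11887 genes tested, its median absolute log2 distance to the other 2 DMSO libraries was 0.424 and 0.437 against 0.197 between those 2, and its erythroid markers summed to 4056 FPKM against 2646 and 2594 FPKM. Compound OB replicate 1 lay closer to OB DMSO replicate 1 (median absolute log2 distance 0.0851) than to the other libraries of its own group (0.189 and 0.235). The results that rest on these libraries are given below with and without them.

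Among the 33 genes, Ifitm2, a membrane protein that blocks virus entry, had the highest DMSO mean in both sets, with 194.4 ± 44.6 FPKM in PD DMSO and 97.6 ± 37.4 FPKM in OB DMSO (SD, n = 3 each). In PD DMSO it was followed by its relative Ifitm1 (157.4 ± 115.9 FPKM), Oasl2 of the 2′-5′ oligoadenylate synthetase family (155.0 ± 107.1 FPKM) and Ifitm3 (98.1 ± 6.84 FPKM). The order of Ifitm2, Ifitm1 and Oasl2 changed between the PD DMSO libraries, while Ifitm2 was above Ifitm3 in each. In OB DMSO Ifitm2 was followed by Bst2, the tetherin that holds budding virus at the cell surface (62.4 ± 34.1 FPKM). Next came Ifi35, a protein that pairs with the STAT-binding Nmi (40.6 ± 6.23 FPKM). This order was the same in every OB DMSO library. The GTPases Mx1 and Mx2, Ifit3 and Oasl1 were among the 5 lowest in both sets. Genes were tested from a set mean of 1 FPKM upward, which 22 genes reached in the OB set and 30 reached in the PD set. The 11 that did not in the OB set were Ddx58, Dhx58, Irf1, Irf8, Ifit2, Ifit3, Mx1, Mx2, Oas1a, Oasl1 and Usp18, with no library above 1.31 FPKM. The 3 that did not in the PD set were Ifit3, Mx1 and Oasl1, with no library above 1.7 FPKM. Ifit3 and Oas1a have near-identical copies, the Ifitm genes are relatives of each other, and Ifit1 and Stat2 overlap other coding genes (Ifit1bl1 and Apof). The use of strand and of shared reads is not given in the sources used here, so the values of these genes are uncertain, as are those of Ifih1, Dhx58, Irf2, Isg15, Usp18 and Trim25, which overlap non-coding genes, and of Eif2ak2, which overlaps a pseudogene and a predicted coding gene.

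**Figure D1:**
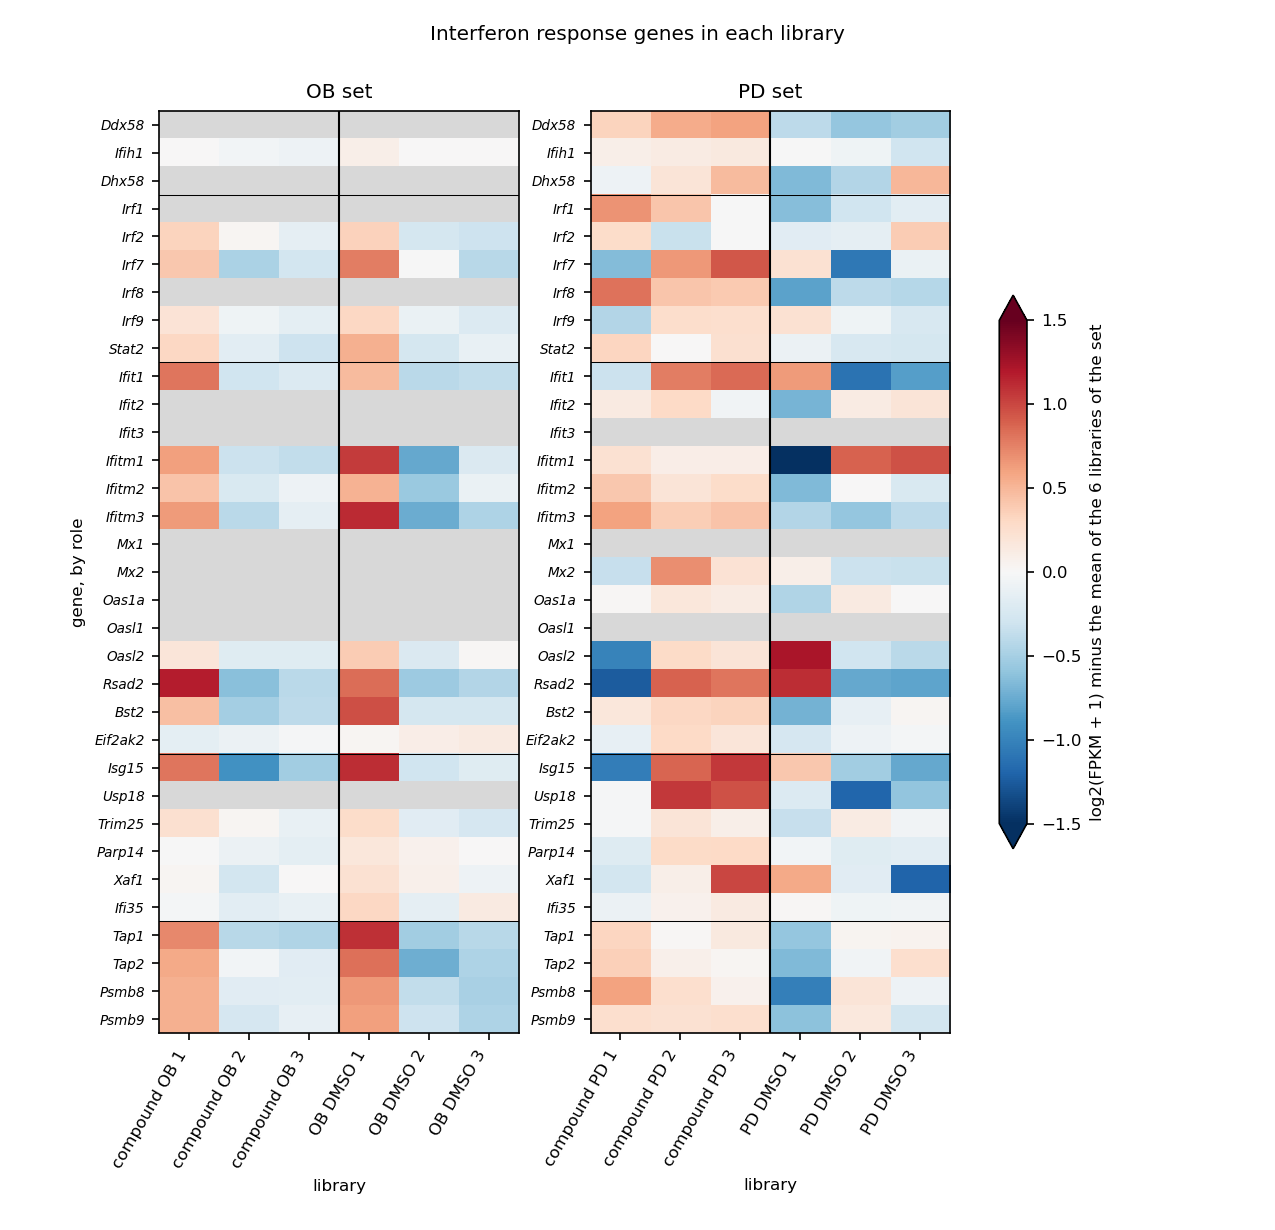
Each of the 33 genes (rows, ordered by role) in each library (columns, compound left of DMSO), as log2(FPKM + 1) minus the mean of the 6 libraries of its set, with grey for genes under the mean of 1 FPKM. In the OB set replicate 1 is the highest library of both groups for 21 of 22 genes, and in the PD set Isg15, Rsad2, Oasl2 and Ifit1 are low in compound PD replicate 1 and high in PD DMSO replicate 1.

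The first comparison asks how the response genes differed between BFU-E given compound PD and those given DMSO. Most measured higher with the compound, but none passed the test. Of the 30 genes tested, 28 had a log2 difference above 0, against 59.1% of all 11887 genes tested, and 2 (Irf2 and Oasl2) had one below 0, against 40.9%. With median-ratio scaling 26 were above 0 and with quantile normalization 27, Irf9 turning under both and Ifi35 under the first. The median difference was 0.38 for the 30 genes and 0.06 for all genes. At a Benjamini-Hochberg adjusted p under 0.05 in limma, 0 of the 30 were called, and of all genes 1 was called higher (0.00841%) and 2 lower (0.0168%). At an unadjusted p under 0.05 there were 7 of the 30, all higher (Ddx58, Irf1, Irf8, Ifitm2, Ifitm3, Bst2 and Usp18), against 9.04% of all genes on the higher side. The 3 compound PD libraries all lay above the 3 DMSO libraries for 10 of the 30, against 13.1% of all genes, and all below for 0, against 3.72%. By role, the median difference was 0.40 for the 3 sensors, 0.51 for the 6 transcription factors, 0.30 for 11 effectors, 0.40 for the 6 modifiers and 0.40 for the 4 antigen processing genes. In bulk RNA a change in the share of cells of a type and a change in RNA per cell cannot be told apart.

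**Figure D2:**
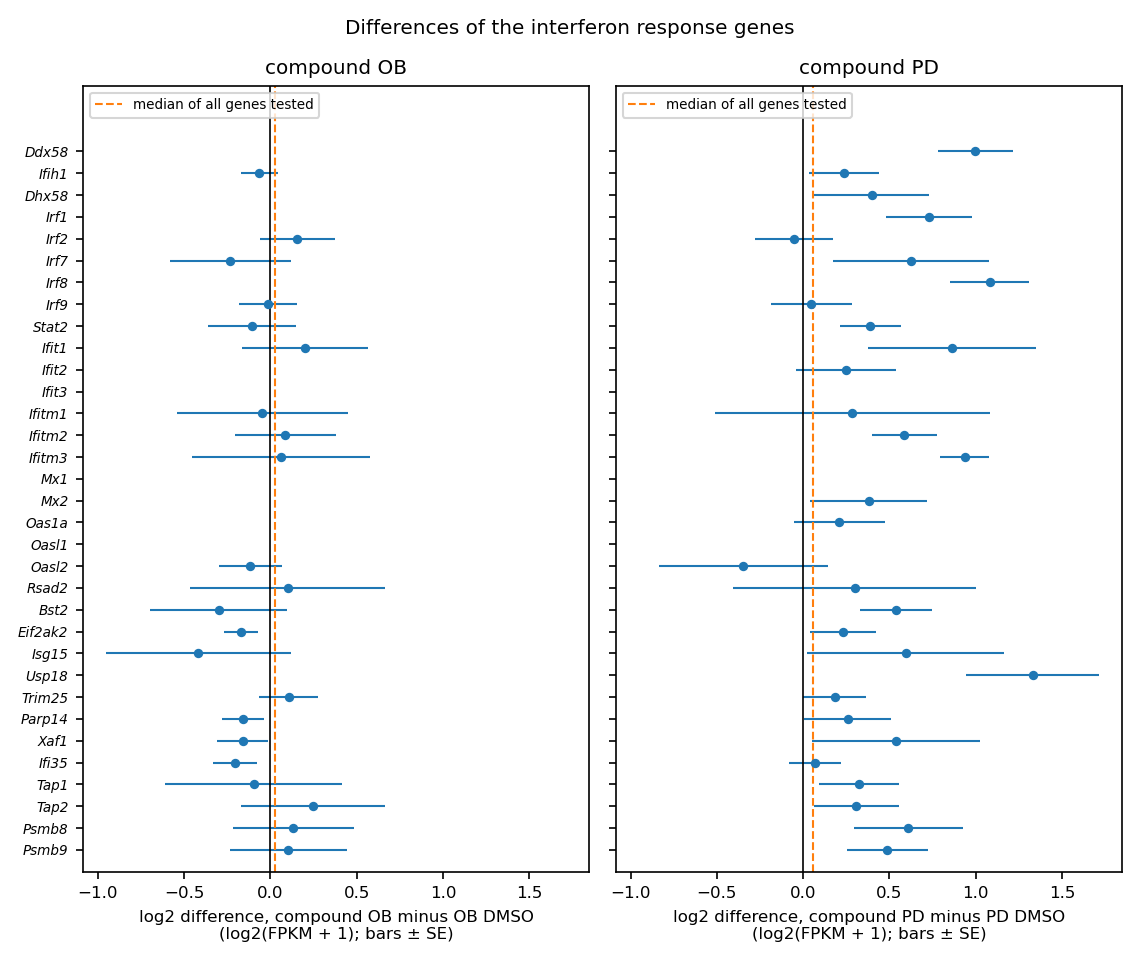
Log2 difference of each gene, compound minus its own DMSO (x axis, log2(FPKM + 1) scale, points with ± SE from limma, n = 3 libraries a group), with genes down the page by role and a dashed line at the median of all genes tested. After compound PD 28 of 30 points lie right of 0 with a median of 0.38, and after compound OB 22 points lie on both sides of it with a median of −0.05.

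Ddx58 (chromosome 4, 40203777 to 40239825 in GRCm38.p6), the sensor of viral RNA ends, had 4.89, 5.85 and 6.11 FPKM in the compound PD libraries and 2.55, 2.13 and 2.25 FPKM in PD DMSO. All 3 compound libraries lay above all 3 DMSO libraries, with means of 5.62 ± 0.643 and 2.31 ± 0.216 FPKM (SD, n = 3 each), a ratio of 2.43. The log2 difference was 1.00 (SE 0.22), and its adjusted p in limma was 0.158. Ifih1 (MDA5), which senses long double-stranded RNA, had 5.61, 5.76 and 5.89 FPKM with compound PD and 5.21, 4.95 and 4.07 FPKM in DMSO, again without overlap (log2 0.24, SE 0.20, limma adjusted p = 0.804). Dhx58 (LGP2), which tunes the other 2 sensors, had 3.64, 4.63 and 5.82 FPKM with compound PD and 2.1, 2.63 and 5.95 FPKM in DMSO. Its groups overlapped, with PD DMSO replicate 3 the highest of the 6.

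Of the transcription factors, Irf8 and Irf1 had the larger separations. Irf8 (chromosome 8, 120736358 to 120756694), which directs granulocyte-monocyte progenitors toward monocytes and dendritic cells, had 10.08, 7.41 and 7.26 FPKM in the compound PD libraries and 2.62, 3.8 and 3.69 FPKM in PD DMSO (log2 1.08, SE 0.23, limma adjusted p = 0.158). Irf1 (chromosome 11, 53770014 to 53778374), an early target of interferon gamma, had 11.34, 9.32 and 6.7 FPKM with compound PD and 3.94, 5.29 and 5.93 FPKM in DMSO (log2 0.73, SE 0.25, limma adjusted p = 0.310). In both genes the compound libraries were all higher, and replicate 1 was the highest compound library and the lowest DMSO library. Stat2, a subunit of the factor that binds the ISRE, had 16.78, 13.28 and 15.81 FPKM with compound PD and 12.39, 11.04 and 10.83 FPKM in DMSO, without overlap (log2 0.39, SE 0.18, limma adjusted p = 0.484). Irf7, the amplifier of interferon production, had 4.81, 13.3 and 16.36 FPKM with compound PD and 9.64, 3.33 and 7.52 FPKM in DMSO, and its groups overlapped through both replicate 1 libraries (log2 0.63, SE 0.45, limma adjusted p = 0.749). Irf9, the DNA-binding subunit of that factor, had means of 19.9 ± 5.25 and 18.9 ± 3.35 FPKM, and Irf2, a relative of Irf1 that competes for its sites, had 17.6 ± 3.90 and 18.4 ± 4.29 FPKM (compound PD and PD DMSO, SD, n = 3 each), differences within the spread.

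The effectors are given by gene family. Ifitm3 (chromosome 7, 141009590 to 141010744), which keeps viruses from leaving endosomes, had 206.55, 176.12 and 183.7 FPKM in the compound PD libraries and 100.32, 90.44 and 103.57 FPKM in PD DMSO. The groups were far apart against their spread, with means of 188.8 ± 15.8 and 98.1 ± 6.84 FPKM (SD, n = 3 each) and a ratio of 1.92, and the log2 difference of 0.94 (SE 0.14) had the smallest p of the 30 genes (limma adjusted p = 0.0906). Without PD DMSO replicate 1, where 131 genes were called higher (1.1%) and 36 lower (0.301%), Ifitm3 passed (log2 0.95, limma adjusted p = 0.0221). Ifitm2 had 311.33, 267.46 and 284.61 FPKM with compound PD and 147.19, 235.69 and 200.46 FPKM in DMSO, without overlap (log2 0.59, SE 0.19, limma adjusted p = 0.279). Their neighbour Ifitm1 did not follow. It had 137.76, 126.64 and 126.63 FPKM with compound PD and 23.66, 218.18 and 230.23 FPKM in DMSO, so that PD DMSO replicate 1 was the lowest of the 6 and the other 2 DMSO libraries the highest. Its log2 difference was 0.29 (SE 0.80, limma adjusted p = 0.971) over all libraries and −0.78 (limma adjusted p = 0.0221) without PD DMSO replicate 1, a turn in direction that rests on that library. Bst2 had 43.18, 47.71 and 48.74 FPKM with compound PD and 23.16, 35.18 and 39.06 FPKM in DMSO, without overlap (log2 0.54, SE 0.21, limma adjusted p = 0.391).

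In another group of genes the libraries numbered 1 stood against the rest of their groups. In 13 of the 30 genes tested (43.3%, against 7.64% of all genes) compound PD replicate 1 was the lowest of its group while PD DMSO replicate 1 was the highest of its own. They were Ddx58, Ifih1, Irf7, Irf9, Ifit1, Mx2, Oasl2, Rsad2, Isg15, Usp18, Parp14, Xaf1 and Ifi35. The opposite arrangement, with compound PD replicate 1 highest and PD DMSO replicate 1 lowest, held in 8 of the 30 (26.7%, against 30.3% of all genes), which were Irf1, Irf2, Irf8, Ifitm1, Ifitm2, Tap1, Tap2 and Psmb8. Isg15 (chromosome 4, 156199424 to 156200818), the ubiquitin-like protein that is joined to other proteins during infection, had 35.26, 134.76 and 153.43 FPKM in the compound PD libraries and 97.18, 50.69 and 42.5 FPKM in PD DMSO. Rsad2 (viperin; chromosome 12, 26442743 to 26456452), which makes a nucleotide that stops viral polymerases, had 16.61, 75.98 and 72.0 FPKM with compound PD and 88.75, 23.53 and 23.14 FPKM in DMSO. In both genes compound libraries 2 and 3 lay above DMSO libraries 2 and 3, while in replicate 1 the DMSO library was above the compound library. Oasl2 had 59.08, 145.31 and 135.86 FPKM with compound PD and 278.57, 96.65 and 89.68 FPKM in DMSO. Ifit1, which binds the caps of foreign RNA, had 3.3, 8.2 and 8.71 FPKM with compound PD and 7.41, 1.5 and 2.03 FPKM in DMSO. In both, compound PD replicate 1 was the lowest of its group and PD DMSO replicate 1 the highest of its own. Usp18, which removes Isg15 from proteins and damps the interferon receptor, had 1.74, 4.74 and 4.34 FPKM with compound PD and 1.39, 0.21 and 0.83 FPKM in DMSO, and its groups did not overlap (log2 1.33, SE 0.38, limma adjusted p = 0.249).

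Over all 6 libraries the log2 differences of Isg15 (0.59, SE 0.57), Rsad2 (0.30, SE 0.70), Oasl2 (−0.35, SE 0.49) and Ifit1 (0.86, SE 0.49) were within or near their errors, with limma adjusted p between 0.619 for Ifit1 and 0.959 for Rsad2. Leaving out replicate 1 of both groups, a choice made after the values were seen, left 2 libraries a group, and 205 of 11887 genes tested were then called higher (1.72%) and 47 lower (0.395%). Of the 30 response genes 5 passed as higher in that fit, namely Isg15 (log2 1.61, SE 0.12, limma adjusted p = 0.00872), Rsad2 (1.62, SE 0.10, adjusted p = 0.00630), Ifit1 (1.78, SE 0.22, adjusted p = 0.0208), Oasl2 (0.59, SE 0.09, adjusted p = 0.0333) and Ifitm3 (0.89, SE 0.09, adjusted p = 0.0147). Ifitm1 passed as lower (−0.82, SE 0.07, limma adjusted p = 0.0121), and Usp18 (1.90, adjusted p = 0.0520), Ddx58 (1.13, adjusted p = 0.0654) and Irf8 (0.81, adjusted p = 0.0982) did not pass. Those calls rest on the order of libraries that led to the choice, and what sets the 2 libraries numbered 1 apart was not tested.

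**Figure D3:**
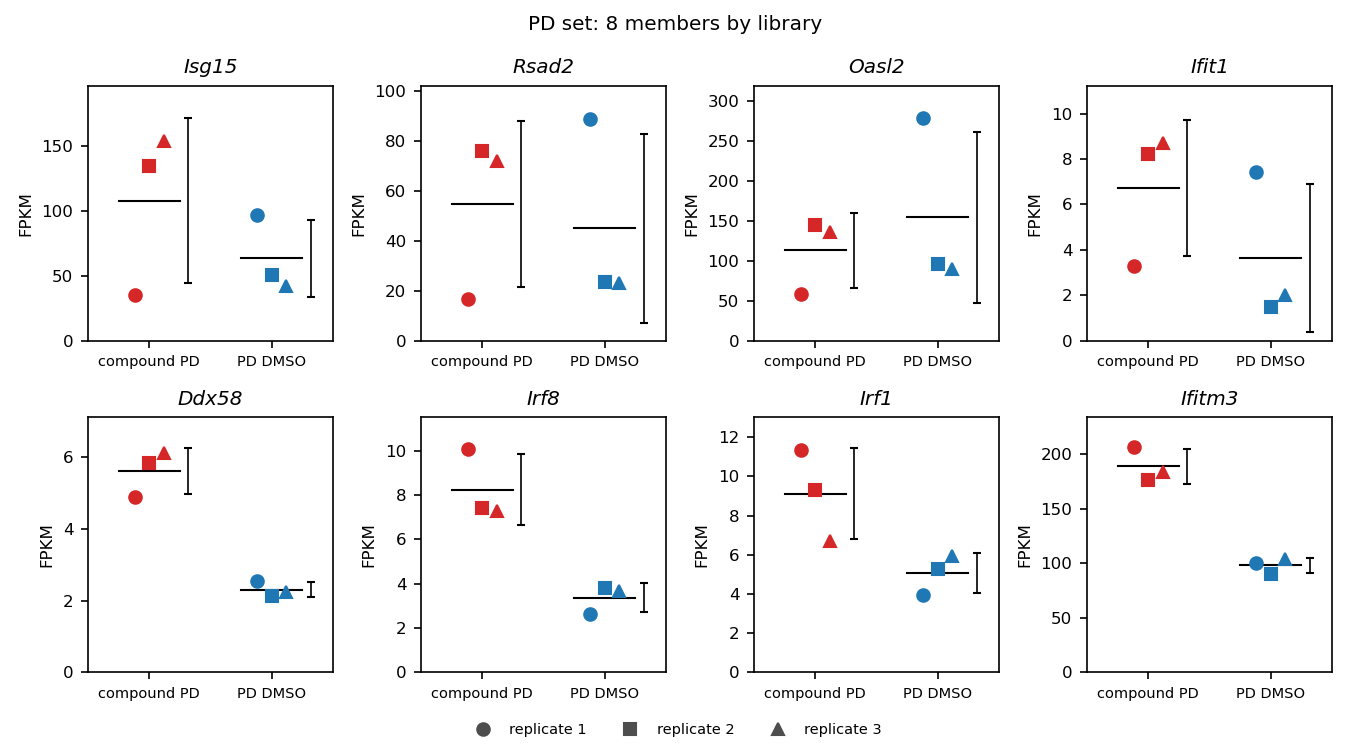
FPKM of 8 genes in each compound PD library (red, left) and PD DMSO library (blue, right), with marker shapes for replicate numbers, a line at the mean and a bar of ± SD (n = 3 libraries). In the upper row (Isg15, Rsad2, Oasl2 and Ifit1) the replicate 1 circles lie low with the compound and high in DMSO, and in the lower row (Ddx58, Irf8, Irf1 and Ifitm3) every compound library lies above every DMSO library.

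Promoter sequence was read for genes of both patterns, from 250 bases before to 50 bases after the RefSeq start in GRCm38.p6, a window of 300 bases that RefSeq gives for 27 of the 33 genes. The ISRE core, searched as GAAANNGAAA on both strands, was in the window of 13 of these 27 and of 3.99% of all 27025 genes with a window. It was found in 2 of 2 sensors, 2 of 6 transcription factors, 8 of 12 effectors, 1 of 4 modifiers and 0 of 3 antigen processing genes. The GAS core, searched as TTCNNNGAA, was in 10 of the 27 and 9.55% of all genes, and the core of the CREB site, searched as TGACG on both strands, in 7 of the 27 and 23.0% of all genes. A match is a description of letters and not of a bound site. The first 3 windows below belong to genes that passed only without replicate 1 and the fourth to Ifitm3, and these 4 carry the ISRE core in capitals. The last belongs to Irf8, whose groups did not overlap, and carries the GAS core in capitals. It is 1 of 2 windows of Irf8, and the other (chr8:120738389-120738688) held no GAS core. The windows were chosen after the values were seen. All are printed 5′ to 3′ on the strand of the gene.
Isg15 (chr4:156200769-156201068, minus strand): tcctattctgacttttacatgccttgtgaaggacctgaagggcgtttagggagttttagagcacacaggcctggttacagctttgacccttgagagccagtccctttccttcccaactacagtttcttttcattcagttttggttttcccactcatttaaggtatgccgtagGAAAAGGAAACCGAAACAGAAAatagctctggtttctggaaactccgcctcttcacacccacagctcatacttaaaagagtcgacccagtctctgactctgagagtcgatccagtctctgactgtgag
Rsad2 (chr12:26456403-26456702, minus strand): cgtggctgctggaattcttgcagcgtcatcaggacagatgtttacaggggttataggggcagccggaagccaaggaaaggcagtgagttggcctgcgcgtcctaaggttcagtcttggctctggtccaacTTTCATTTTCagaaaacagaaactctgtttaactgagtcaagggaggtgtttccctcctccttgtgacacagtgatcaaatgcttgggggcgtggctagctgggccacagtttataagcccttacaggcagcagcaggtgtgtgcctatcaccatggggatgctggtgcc
Ifit1 (chr19:34640639-34640938, plus strand): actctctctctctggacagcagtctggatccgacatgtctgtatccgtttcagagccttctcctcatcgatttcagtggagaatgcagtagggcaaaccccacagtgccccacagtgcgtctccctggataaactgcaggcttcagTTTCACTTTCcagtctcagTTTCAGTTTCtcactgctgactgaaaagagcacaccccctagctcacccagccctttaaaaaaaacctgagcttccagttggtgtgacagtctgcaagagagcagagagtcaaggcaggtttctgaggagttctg
Ifitm3 (chr7:141010695-141010994, minus strand): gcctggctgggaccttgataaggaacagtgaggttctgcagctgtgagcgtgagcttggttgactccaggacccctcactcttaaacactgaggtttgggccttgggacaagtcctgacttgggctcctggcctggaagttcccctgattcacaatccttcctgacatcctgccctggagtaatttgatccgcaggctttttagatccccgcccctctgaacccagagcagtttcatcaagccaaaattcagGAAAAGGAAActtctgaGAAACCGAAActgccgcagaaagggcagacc
Irf8 (chr8:120736108-120736407, plus strand): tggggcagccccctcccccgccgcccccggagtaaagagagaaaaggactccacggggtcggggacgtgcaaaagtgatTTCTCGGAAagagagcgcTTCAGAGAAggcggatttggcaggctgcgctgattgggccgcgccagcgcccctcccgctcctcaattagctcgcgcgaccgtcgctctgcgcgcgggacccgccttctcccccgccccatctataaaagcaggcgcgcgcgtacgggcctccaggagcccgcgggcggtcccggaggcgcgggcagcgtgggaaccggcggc
Isg15 had 3 matches of the ISRE core that overlap in a single run starting at position −78 from the first transcribed base. Rsad2 had 1 match at −120 and Ifit1 had 2 from −104, all read on the opposite strand. The 2 matches of Ifitm3 lay just inside the transcribed part, and the 2 GAS matches of Irf8 began at −171. Ifitm3 also had 1 GAS match, at 13 inside the transcribed part, which was not marked. The windows of Isg15, Rsad2 and Ifit1 held no GAS core, and neither window of Irf8 held an ISRE core. The window of Oasl2, which also passed only without replicate 1, held no ISRE core. Among the other genes with a window and the same order of the PD libraries numbered 1, Ddx58 and Ifih1 held it, and Irf7, Irf9, Xaf1 and Ifi35 did not.

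Antigen processing genes sat side by side on chromosome 17 (Psmb9 from 34182030, Tap1 from 34187556, Psmb8 from 34198195 and Tap2 from 34204479, in GRCm38.p6). Psmb9, a catalytic subunit of the immunoproteasome, had 8.91, 8.71 and 8.92 FPKM with compound PD and 4.44, 8.29 and 5.87 FPKM in DMSO, without overlap (log2 0.49, SE 0.23, limma adjusted p = 0.513). Psmb8, another catalytic subunit, had 16.68, 12.87 and 11.19 FPKM with compound PD and 4.72, 12.33 and 10.06 FPKM in DMSO (log2 0.61, SE 0.32, limma adjusted p = 0.566). The peptide transporter subunits Tap1 and Tap2 had log2 differences of 0.32 (SE 0.23) and 0.31 (SE 0.24). In all 4 genes PD DMSO replicate 1 had the lowest value of the 6 libraries. The remaining genes tested had differences between 0.07 and 0.54 with overlapping groups. They were Ifit2, Mx2, Oas1a, the double-stranded RNA kinase Eif2ak2 (PKR), the ISG15 and ubiquitin ligase Trim25, the ADP-ribosyltransferase Parp14, Xaf1 and Ifi35. For Xaf1, which binds the apoptosis inhibitor XIAP, the values were spread widely, at 1.52, 2.25 and 5.13 FPKM with compound PD and 3.53, 1.72 and 0.33 FPKM in DMSO.

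Interferon genes themselves were at or near 0 in every library, with a highest value among the 9 listed of 0.81 FPKM in the PD set and 0.1 FPKM in the OB set. Of the 97 other genes of the pathway, 71 were tested in the PD set, 0 were called in limma, and 16 had an unadjusted p under 0.05, all higher (9.04% of all genes). Of the 71, 55 measured higher (59.1% of all genes) and 16 lower, with a median difference of 0.31. For 29 of the 71 the compound PD libraries all lay above DMSO (13.1% of all genes) and for 1 all below (3.72%). Of these 29, 8 were among the 14 tested genes of nucleic acid sensing, 13 among the 34 of other interferon-induced genes, 4 among the 8 of class I antigen presentation and 2 among the 6 inhibitors of receptor signalling. Ifngr1, the binding chain of the interferon gamma receptor, had 30.59, 32.6 and 37.75 FPKM with compound PD and 14.41, 26.67 and 20.83 FPKM in DMSO (log2 0.71, SE 0.23, limma adjusted p = 0.280). It was higher in every compound library, while the type I receptor chains Ifnar1 (−0.06, SE 0.24) and Ifnar2 (−0.26, SE 0.20), the gamma receptor chain Ifngr2 (−0.08, SE 0.22) and the kinase Jak1 (−0.10, SE 0.14) had log2 differences below 0, none past the test. The kinase Tyk2 had 0.31 (SE 0.19) and Irf3, which starts interferon transcription after sensing, had 0.20 (SE 0.17).

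Summed markers of granulocytes and of macrophages stood higher in every compound PD library than in every PD DMSO library. The 14 markers of neutrophils and granulocyte precursors, all at a mean of at least 1 FPKM, summed to 29904, 31222 and 37658 FPKM in the compound PD libraries and to 11700, 17702 and 16934 FPKM in PD DMSO, and 9 of them had no overlap between groups. Among them S100a9 had the largest values, with means of 15352 and 6852 FPKM. The 10 early erythroid markers summed to 2063, 2560 and 2598 FPKM with compound PD and to 4056, 2646 and 2594 FPKM in DMSO. Without overlap, 1 was higher (Kit, 13.1% of all genes) and 2 lower (Klf1 and Tfrc, 3.72%). The 8 megakaryocyte markers summed to 7542, 4244 and 4719 FPKM with compound PD and to 4578, 2347 and 2313 FPKM in DMSO, and the 8 mast cell and basophil markers to 3340, 1578 and 1600 FPKM with compound PD and to 1951, 928.9 and 981.1 FPKM in DMSO, both with higher means but overlapping groups. Macrophage markers were low, with 3 of 14 at a mean of at least 1 FPKM, Spic and Timd4 at 0, and sums of 29.1, 31.7 and 25.4 FPKM with compound PD and 12.7, 24.5 and 23.9 FPKM in DMSO. Dendritic cell markers had lower sums, with 16.2, 18.6 and 19.1 FPKM with compound PD and 27.8, 19.9 and 22.1 FPKM in DMSO, but went both ways by gene. Zbtb46 had 6.05, 9.04 and 8.42 FPKM with compound PD and 23.5, 8.85 and 13.57 FPKM in DMSO. Clec9a had 2.45, 1.8 and 2.25 FPKM with compound PD and 0.72, 1.16 and 0.81 FPKM in DMSO, higher without overlap. Lymphoid markers overlapped, with sums of 22.9, 13.2 and 15.2 FPKM with compound PD and 13.8, 16.5 and 15.1 FPKM in DMSO. None of these markers was called in limma without a block, while at an unadjusted p under 0.05 there were 10 of 14 granulocyte, 8 of 8 megakaryocyte, 3 of 7 mast cell and 2 of 3 macrophage markers tested, all higher (9.04% of all genes). Of the 3 dendritic cell markers and the 10 early erythroid markers tested, 1 of each was higher at that threshold and 1 of each lower (1.62% of all genes on the lower side). The part of these cell types in the values of Irf8, Ifitm2, Ifitm3, Ifngr1 and the other response genes was not tested.

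The second comparison asks the same of compound OB at 100 µM. None passed the test, and apart from Eif2ak2 and Parp14 the values of the compound OB and OB DMSO libraries overlapped for every gene tested. Of the 22 genes tested, 9 had a log2 difference above 0 and 13 below, against 58.7% and 41.3% of all 10073 genes tested. The counts of 9 and 13 were the same with median-ratio scaling and with quantile normalization, but not with 1 library left out. Leaving out compound OB replicate 1 gave 3 above and 19 below, its replicate 2 gave 12 and 10, and its replicate 3 gave 13 and 9. Among the OB DMSO libraries, leaving out replicate 1 gave 18 above and 5 below, replicate 2 gave 4 and 19 (23 genes tested in either case) and replicate 3 gave 5 and 17. The median was −0.05 for the 22 and 0.03 for all genes. In limma 0 of the 22 had an unadjusted p under 0.05, against 2.45% of all genes on the higher side and 1.24% on the lower, and 0 of the 22 and 0 of all genes had an adjusted p under 0.05. With the replicate number as a block, 4 of all genes were called higher (0.0397%) and 3 lower (0.0298%), again 0 of the 22. In that limma fit 3 of the 22 had an unadjusted p under 0.05, against 1497 of all 10073 genes tested. Each of the 22 had a smaller SE with the block, and the SEs below are without it unless the block is named. The groups did not overlap for 2 of the 22, both lower (3.42% of all genes), and for 0 on the higher side (5.31%). Differences ran between −0.42 for Isg15 and 0.25 for Tap2.

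Isg15 had 31.48, 8.9 and 12.03 FPKM in the compound OB libraries and 39.01, 14.15 and 15.47 FPKM in OB DMSO. The compound library was lower in each same-numbered pair, but replicate 1 of either group was far above the rest and the groups overlapped. The log2 difference was −0.42 (SE 0.53, limma adjusted p = 1.00), and with the block its SE was 0.087 (limma adjusted p = 0.204). Bst2 had 70.37, 35.87 and 38.98 FPKM with compound OB and 101.81, 42.64 and 42.81 FPKM in DMSO (log2 −0.30, SE 0.40), also lower in every pair. With the block its SE was 0.088 (limma adjusted p = 0.287). Eif2ak2 had 9.83, 10.22 and 10.79 FPKM with compound OB and 11.21, 11.77 and 12.14 FPKM in DMSO, the only gene above 5 FPKM whose groups did not overlap (log2 −0.17, SE 0.10, limma adjusted p = 1.00, and 0.337 with the block). Parp14, the other gene without overlap, had means of 1.47 ± 0.127 FPKM with compound OB and 1.76 ± 0.153 FPKM in DMSO (SD, n = 3 each). Among the same-numbered pairs, 6 of the 22 genes were lower in all 3 (27.3%, against 16.7% of all genes), namely Isg15, Bst2, Eif2ak2, Parp14, Ifih1 and Ifi35. Ifit1 alone was higher in all 3 (4.55%, against 23.1% of all genes).

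**Figure D4:**
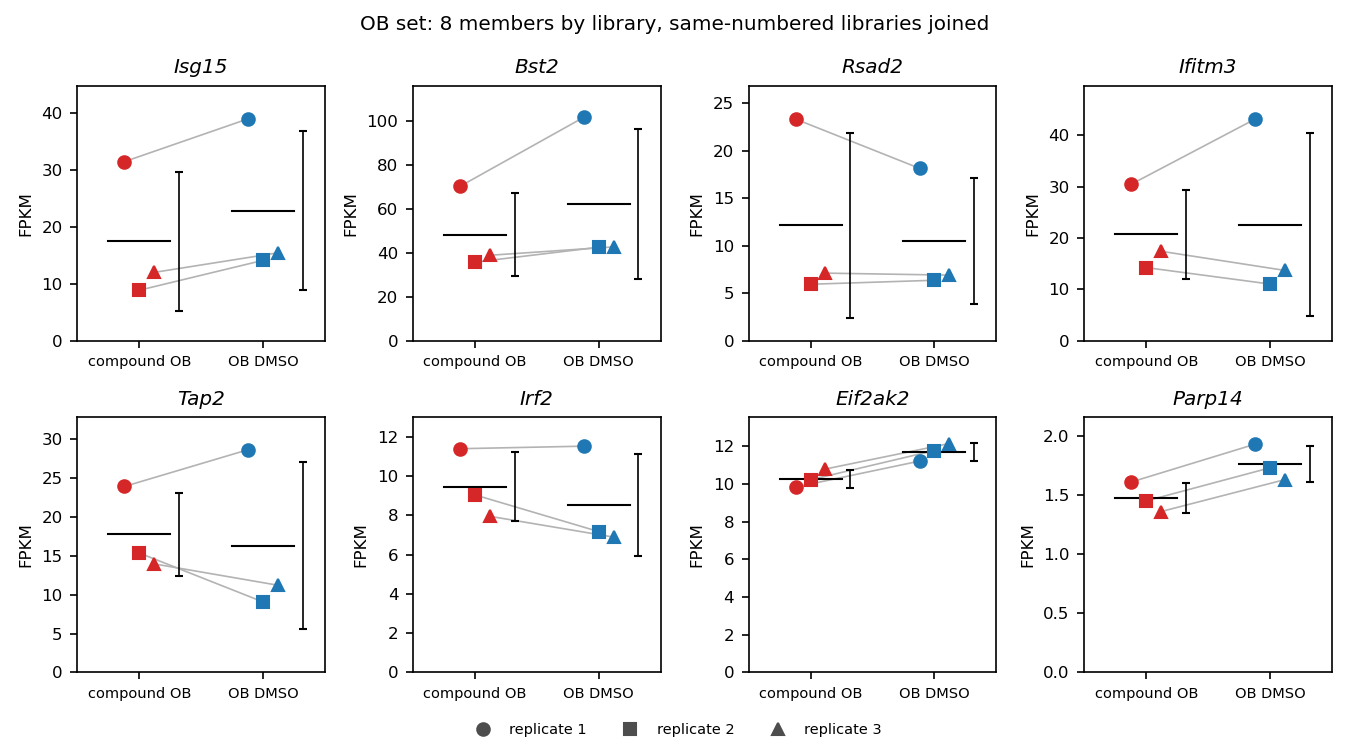
FPKM of 8 genes in each compound OB library (red, left) and OB DMSO library (blue, right), with marker shapes for replicate numbers, grey lines between libraries of the same number, a line at the mean and a bar of ± SD (n = 3 libraries). Isg15, Bst2, Eif2ak2 and Parp14 are lower with compound OB along all 3 lines, and apart from Eif2ak2 the circles of replicate 1 are the highest of their groups.

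Ifi35 had 36.69, 33.44 and 34.49 FPKM in the compound OB libraries and 46.59, 34.16 and 41.15 FPKM in OB DMSO (log2 −0.20, SE 0.13). Oasl2 had 21.98, 16.94 and 16.9 FPKM with compound OB and 25.32, 16.46 and 19.46 FPKM in DMSO (log2 −0.12, SE 0.18). Their groups overlapped, as did those of the genes that measured higher. Tap2 had 23.93, 15.37 and 13.97 FPKM with compound OB and 28.67, 9.07 and 11.22 FPKM in DMSO (log2 0.25, SE 0.42), Irf2 had 11.39, 9.04 and 7.95 FPKM with compound OB and 11.52, 7.17 and 6.89 FPKM in DMSO (0.15, SE 0.22), and Trim25 had 23.62, 20.36 and 18.41 FPKM with compound OB and 24.24, 17.52 and 16.49 FPKM in DMSO (0.11, SE 0.17). In each of these 3 genes compound libraries 2 and 3 were above DMSO libraries 2 and 3, and compound library 1 was below DMSO library 1. Rsad2 (23.33, 5.96 and 7.13 FPKM with compound OB and 18.15, 6.38 and 6.92 FPKM in DMSO) and Ifitm3 (30.46, 14.25 and 17.42 FPKM with compound OB and 43.12, 11.05 and 13.7 FPKM in DMSO) differed more between replicate numbers than between groups.

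The libraries numbered 1 carried most of the spread in the OB set. In 21 of the 22 genes (95.5%, against 35.1% of all genes) replicate 1 was the highest library of both groups, and in the remaining gene, Eif2ak2, it was the lowest of both. Granulocyte markers had the same order, with sums of 487.4, 166 and 181.3 FPKM in the compound OB libraries and 582.7, 147.1 and 145.5 FPKM in OB DMSO, as had megakaryocyte markers, with sums of 973.8, 580.5 and 621.1 FPKM with compound OB and 1365, 479.8 and 564.1 FPKM in DMSO. Macrophage markers summed to between 2.48 and 4.57 FPKM, with C1qb, C1qc, Spic and Mertk at 0. The part of these cells in the response genes was not tested. Without replicate 1 of both groups, a choice made after the values were seen, 1532 of 9967 genes tested were called higher (15.4%) and 241 lower (2.42%) in limma, and 3 of the 22 were among them. Tap2 (log2 0.50, SE 0.11, limma adjusted p = 9.57e-05) and Ifitm3 (0.33, SE 0.10, adjusted p = 0.0130) were higher and Isg15 was lower (−0.48, SE 0.11, adjusted p = 0.000196).

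Of the other pathway genes, 60 were tested in the OB set and 0 were called in limma with or without the block, while 5 had an unadjusted p under 0.05, 4 higher (2.45% of all genes) and 1 lower (1.24%). They had 33 differences above 0 (58.7% of all genes) and 27 below (41.3%), with a median of 0.01. In each direction 4 were free of overlap (5.31% of all genes on the higher side and 3.42% on the lower). Jak1, the kinase of both receptor types, had 46.13, 44.53 and 43.6 FPKM in the compound OB libraries and 35.59, 32.22 and 36.26 FPKM in OB DMSO (log2 0.36, SE 0.09, limma adjusted p = 1.00, and 0.156 with the block). Ifnar2, the binding chain of the type I receptor, had 41.81, 32.62 and 34.42 FPKM with compound OB and 32.23, 25.46 and 31.76 FPKM in DMSO (log2 0.27, SE 0.14, adjusted p = 1.00). Both were without overlap. The 5 others named for the receptors and their signal had log2 differences of 0.07 (Ifnar1), 0.02 (Ifngr1), −0.01 (Ifngr2), 0.09 (Tyk2) and 0.06 (Irf3).

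The third comparison asks whether the response genes differed between the compounds' effects, which were set against separate DMSO controls. The compound, its dose and the set of libraries go together, so a difference between compounds and a difference between sets cannot be told apart. Of the 29 genes tested, 7 (Ddx58, Dhx58, Irf1, Irf8, Ifit2, Oas1a and Usp18) were under a mean of 1 FPKM in the OB set and entered through the PD set, so they are left out of the counts that follow. In 20 of the 22 genes tested in both sets, all but Irf2 and Oasl2, the compound OB effect was below the compound PD effect, against 49.9% of all 9255 genes tested in both sets. The median of the differences was −0.41 for the 22 and 0.00047 for those 9255 genes. With 1 library left out it lay between −0.66 (without compound OB replicate 1, 20 of 22 below 0) and −0.19 (without OB DMSO replicate 1, 14 of 22 below 0). In limma 0 of all 10311 genes had an adjusted p under 0.05, and at an unadjusted p under 0.05 there were 0 of the 22, against 1.77% of genes tested in both sets on the higher side and 3.65% on the lower. For Ifitm3, with a compound OB effect of 0.06 and a compound PD effect of 0.94, the difference was −0.88 (SE 0.55, limma adjusted p = 0.857), and −0.30 without OB DMSO replicate 1. Of the 7 left out, Ddx58 had means of 0.557 and 0.760 FPKM, Irf8 0.360 and 0.463 FPKM, Usp18 0.403 and 0.610 FPKM and Irf1 0.650 and 0.627 FPKM in the OB set (compound OB and OB DMSO), levels at which the log2(FPKM + 1) scale holds differences small.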

How the data were processed

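RNA of 12 BFU-E libraries was measured by sequencing. The deposited values are FPKM per gene symbol with 2 decimals. Per the labels' protocols, column-purified RNA went into Illumina libraries. Per the submitters' processing notes, STAR was the aligner and mm10 the build. Not given in the sources used here were its version, the FPKM program, the annotation and the strand setting.

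Symbols turned into dates (27 a set) and symbols split at a hyphen or repeated (430 for compound OB, 185 for compound PD) were left out, none of them a response gene. Steps of whole reads were looked for among low values. Ratios to the smallest value of a gene were whole within 0.05 in 9.86% (OB) and 10.2% (PD) of cases, against 10% by chance, so no reads were recovered and no counting error can be given.

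The 3 libraries of a compound were set against their 3 DMSO libraries in limma 3.58.1 (R 4.3.3, statmod 1.5.0; trend and robust moderation) on log2(FPKM + 1), over all genes averaging 1 FPKM or more. Two-sided p-values were adjusted by Benjamini-Hochberg over all genes tested, at 0.05. The effects of the compounds were compared in a single fit of 12 libraries. The scripts were tested on simulated data. The correlation of deviations between same-numbered libraries, over all genes tested, was 0.831, 0.434 and 0.652 in the OB set, above the 0.1 taken as pairing. Differently numbered libraries also passed 0.1 for compound OB 2 with OB DMSO 3 (0.327) and compound OB 3 with OB DMSO 2 (0.413). Replicate 1 against other numbers gave −0.536 to −0.712. The measure thus set replicate 1 apart but does not show that numbers 2 and 3 are pairs. In the PD set the same-numbered correlation was −0.0051, −0.028 and −0.020, so the numbers were not taken as pairs there. Values of every library are given for genes past the threshold, for the 8 largest differences a set and for genes without overlap, each above 5 FPKM, and for others where a result turns on them. The response genes, the lists and the tests were chosen with earlier results of these data known. Promoters come from RefSeq for GRCm38.p6. Python 3.11.15 with numpy 2.4.6, pandas 2.3.3 and matplotlib 3.10.9 handled tables and figures.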

Additional observations from a re-analysis of the deposited data

How the results depend on the processing

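The alternatives changed the pseudocount, the low-value filter, the scaling, limma's settings, the block and the libraries. No response gene was called after compound OB or compound PD, or in the difference, under any that kept all libraries. After compound OB, 3 were called without replicate 1, with or without the replicate block. Of all genes the block called 7, the block with median-ratio scaling 104, leaving out OB DMSO replicate 1 called 14, both libraries numbered 1 1773, and the block without replicate 1, 2 or 3 called 1133, 146 and 3. After compound PD, 2 response genes were called without PD DMSO replicate 1, 6 without both libraries numbered 1, and 7 with the replicate block and without replicate 1, which added Irf7. All-gene counts were 41 with the block, 0 with no filter, with the block and median-ratio scaling or with no trend and no robust moderation, 0 to 167 (without PD DMSO replicate 1) with 1 library left out, 252 without both libraries numbered 1, and 206, 70 and 82 with the block and without replicate 1, 2 or 3. The 41 held 7 markers of other cells (Camp, Ngp, Lcn2, S100a8, S100a9, Cma1 and Pf4), all higher. The PD block was not taken as a pairing, as same-numbered libraries did not correlate over all genes tested. The sums of the megakaryocyte and of the mast cell and basophil markers were nonetheless highest in replicate 1 of both PD groups. The PD median was 0.25 with quantile normalization and 0.30 to 0.47 with 1 library left out, and the OB median −0.21 to 0.14. For the difference, all-gene counts were 3 with a pseudocount of 0.1, 3 with no filter, 6 with no trend and no robust moderation and 0 to 15 (without PD DMSO replicate 1) with 1 library left out. Directions turned where libraries were left out. With 1 library left out, the log2 difference after compound OB ran from −0.30 to 0.64 for Ifitm3, −0.47 to 0.54 for Rsad2, −0.25 to 0.043 for Oasl2, −0.60 to 0.11 for Bst2, −0.92 to 0.029 for Isg15 and −0.059 to 0.72 for Tap2, and after compound PD from −0.78 to 0.84 for Ifitm1, −0.64 to 0.18 for Oasl2 and −0.068 to 1.00 for Rsad2. Without replicate 1, with or without the block, it was −0.023 for Rsad2 after compound OB, and −0.82 for Ifitm1 and 0.59 for Oasl2 after compound PD. With the block and without replicate 2 or 3 it was −0.081 and −0.074 for Ifitm3 after compound OB and −0.38 and −0.35 for Rsad2 after compound PD, and without replicate 3 it was −0.022 for Isg15 after compound PD. The cause was not tested. Without counts, how far depth limits the low genes cannot be given.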
